A study of Homo sapiens with 12 samples.

Results

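The human mitochondrial genome is represented by 37 of the 61209 rows of the deposited count table, those whose gene name starts with MT-. They comprise 13 mRNAs, 2 rRNAs and 22 tRNAs. The cells were A375, an established human melanoma line, and RNA was sequenced from 4 groups with 3 libraries each, 12 libraries in all. Control cells and cells depleted of OGDH, each with glucose or after 5 h of glucose starvation, made up the groups. All groups share the A375 background. The sample titles call the depleted cells OGDH KO and the series text speaks of a knockdown, and the sources used here do not give how the depletion was made, whether the cells were 1 clone or what the control cells carried. The labels do not say if the 3 libraries of a group are separate cultures, so a p-value speaks of the spread between these libraries, which may be technical.

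The libraries held 21556273 to 25546615 counted fragments. Levels are in CPM, that is, counts divided by the library size after scaling with edgeR's TMM factors, and each ± is the SD over the 3 libraries of a group. OGDH, the targeted gene, stood at 154 ± 11.9 CPM (n = 3) in control cells, 131 ± 2.01 in starved control cells, 39.8 ± 4.68 in OGDH-depleted cells and 32.8 ± 0.904 in starved OGDH-depleted cells, and the groups did not overlap. Of the 8 melanoma lineage markers looked at, SOX10 (299 to 670 CPM) and MITF (23.5 to 49.3 CPM) were expressed in all libraries, while the pigment gene TYR had at most 0.0561 CPM. The other markers were low. Their medians were 1.13 CPM for PMEL, 1.03 for MLANA, 0.344 for DCT, 1.30 for S100B and 2.03 for S100A1. Summed over those 8 markers the level, mostly that of SOX10, was 338 to 427 CPM in starved control cells and 539 to 715 CPM in the other groups. Of 12 mesenchymal, epithelial and blood markers, only KRT8 passed 10 CPM, at 49 to 139 CPM.

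Mitochondrial DNA is a small circle that is transcribed from both strands into long precursor RNAs. In those precursors tRNAs sit between most of the mRNAs and rRNAs, and enzymes that cut at the tRNA ends release the pieces. The mRNAs encode subunits of respiratory complexes I, III and IV and of ATP synthase, and the rRNAs and tRNAs serve the mitochondrial ribosome that translates them. OGDH is the first enzyme of the 2-oxoglutarate dehydrogenase complex in the tricarboxylic acid cycle, which supplies NADH to complex I.

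How the fragments were counted matters most for the tRNAs. Per the file headers the authors' counting did not use strand and did not count a fragment that touched more than 1 row. The tRNA rows are 59 to 75 bases long and most of them lie directly against their neighbours, so that only fragments short enough to stay inside a window of 59 to 105 bases could be counted in 9 of the 10 tested tRNA rows. MT-TP is the exception, since no further row follows it in the table on the side of the non-coding control region. A tested tRNA row other than MT-TP therefore measures short fragments, from the tRNA or from a precursor on either strand, and not the pool of mature tRNA. In MT-TP longer fragments that run on into that region could be counted too, so it does not measure mature tRNA either.

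The sequences below are those of 7 tRNAs on which the results turn, as GENCODE release 29 transcripts with hg38 coordinates, written 5′ to 3′ with the anticodon in capitals. MT-TG, MT-TR, MT-TH and MT-TS2 are shown because they were lower after starvation in both kinds of cell, MT-TN and MT-TC because they were lower after starvation in OGDH-depleted cells and not called in control cells, and MT-TP because its counts followed the mRNAs.
MT-TG (glycine, chrM:9991-10058, plus strand): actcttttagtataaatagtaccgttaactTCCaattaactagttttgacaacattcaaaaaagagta
MT-TR (arginine, chrM:10405-10469, plus strand): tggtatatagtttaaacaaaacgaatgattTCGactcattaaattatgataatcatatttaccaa
MT-TH (histidine, chrM:12138-12206, plus strand): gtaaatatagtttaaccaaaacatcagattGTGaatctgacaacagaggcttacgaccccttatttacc
MT-TS2 (serine, chrM:12207-12265, plus strand): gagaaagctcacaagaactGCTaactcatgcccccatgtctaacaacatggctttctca
MT-TN (asparagine, chrM:5657-5729, minus strand): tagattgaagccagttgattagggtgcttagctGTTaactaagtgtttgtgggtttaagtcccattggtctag
MT-TC (cysteine, chrM:5761-5826, minus strand): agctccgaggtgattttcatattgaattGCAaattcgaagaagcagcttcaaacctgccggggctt
MT-TP (proline, chrM:15956-16023, minus strand): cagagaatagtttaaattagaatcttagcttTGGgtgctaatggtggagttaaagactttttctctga

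The 13 mRNAs together made up very different shares of libraries of the same group. They took 4.72%, 14.05% and 6.03% of the counted fragments in the 3 control libraries and 13.3%, 12.1% and 3.67% in the 3 starved control libraries. The share was 5.86%, 6.55% and 4.82% in OGDH-depleted cells and 2.87%, 4.83% and 9.26% in starved OGDH-depleted cells. Control replicate 2 was thus over 2 times its fellow libraries, starved control replicate 3 was far below its own, and starved OGDH-depleted replicate 3 was the highest of its group. All mitochondrial rows together averaged 8.65% ± 5.22 (SD, n = 3) in control cells, 10.6% ± 5.62 in starved control cells, 6.13% ± 0.916 in OGDH-depleted cells and 5.96% ± 3.40 in starved OGDH-depleted cells, so that the groups overlapped throughout.

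A second property of the libraries moved with this share. The slope of log2 CPM on the GC content of nuclear genes was above 0 in 7 libraries and below 0 in 5. Libraries above 0 had mitochondrial mRNA shares of 2.87% to 6.55%, and those below 0 had shares of 4.83% to 14.05%. Control replicate 2 had a slope of -0.28 log2 units per 10 percentage points of GC against 0.21 and 0.14 in the other control libraries, and starved control replicate 3 had 0.17 against -0.20 and -0.25. In starved OGDH-depleted cells the slopes were 0.080, -0.073 and -0.32, and in OGDH-depleted cells 0.17 to 0.18. The part of this property in the mRNA results was not tested beyond the fits given beside them.

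**Figure D1:**
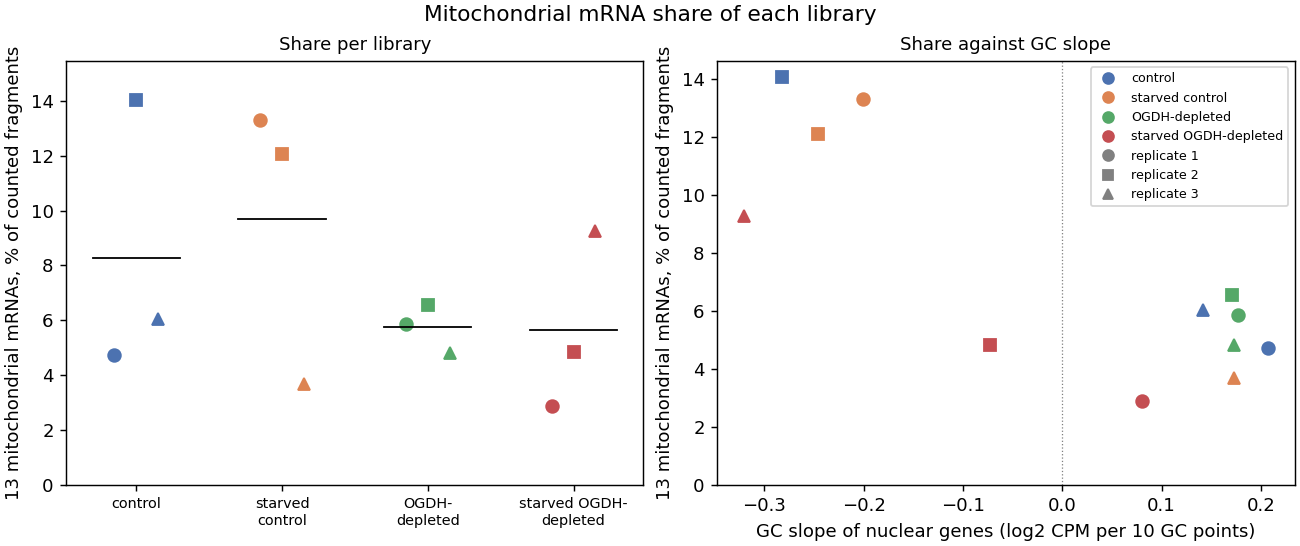
The left panel plots the 13 mitochondrial mRNAs as a percent of counted fragments in each of the 12 libraries by group, with a line at the group mean, and the right panel plots the same share against the GC slope of nuclear genes. Circles, squares and triangles are replicates 1, 2 and 3; control replicate 2 (14.05%) and starved control replicate 3 (3.67%) lie far from the other libraries of their groups, and the 7 libraries with a slope above 0 lie at or below 6.55%.

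With starvation, 0 of the 13 mRNAs passed the test in control cells and 0 in OGDH-depleted cells, and 0 passed for OGDH loss with glucose or for the interaction, which compares the starvation responses of the 2 kinds of cell. The test was edgeR's quasi-likelihood test over all 18526 rows that passed a filter on low counts, with Benjamini-Hochberg adjusted p under 0.05 as the threshold, and of those rows 34.5% passed for starvation in control cells, 7.18% in OGDH-depleted cells, 3.04% with OGDH loss in fed cells and 17.3% for the interaction. DESeq2 also called 0 mRNAs in each of these 4 comparisons, and 0 had an unadjusted p under 0.05 with edgeR. Standard errors were large: their median over the mRNAs was 0.66 log2 units for starvation in control cells, against 0.22 over all tested rows. A 2-fold change of an mRNA was therefore not detectable between these groups.

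The direction of the mRNAs with starvation in control cells depended on how the libraries were treated. Without the 3 outlying libraries (replicate 2 of the control, replicate 3 of the starved control and replicate 3 of the starved OGDH-depleted cells), 12 of 13 were higher in starved control cells, where the median log2 fold change was 0.33 with all libraries and 1.68 without them. With the GC slope as a covariate, an alternative added after seeing the data, 2 were higher and 5 lower and the median was -0.25. In starved OGDH-depleted cells those 2 fits called 9 and 13 of the 13 mRNAs lower, with medians of -0.82 and -1.54 against -0.23 with all libraries and no covariate. For OGDH loss without glucose all 13 mRNAs lay below 0 (median -1.004), and both fits called 13 of 13 lower, there and in the interaction. These fits also called many other rows. Of all tested rows, the fit without the outlying libraries called 60.5% for starvation in control cells and 17.6% in OGDH-depleted cells. The covariate fit called 59.7% and 26.9%. Between the 2 starved groups the fits called 52.6% and 57.7% of all tested rows, and in the interaction 43% and 47.3%. The covariate was computed from the same libraries, and leaving out 3 libraries for standing apart lowers the spread by construction.

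The complex IV mRNAs encode the core of cytochrome c oxidase. MT-CO1 stood at 22801 ± 12744 CPM in control cells, 34844 ± 17861 in starved control cells, 17689 ± 3558 in OGDH-depleted cells and 13826 ± 6347 in starved OGDH-depleted cells. For MT-CO2 the levels in the same order were 7181 ± 4104, 12136 ± 5971, 5505 ± 853 and 8127 ± 4494 CPM, and for MT-CO3 10005 ± 5364, 7144 ± 3628, 7315 ± 969 and 5358 ± 2664 CPM. In all 3 the SD was small against the mean only in OGDH-depleted cells, as for the whole share. Per kilobase of row, MT-CO1 (14787 CPM) and MT-CO3 (12762 CPM) were the highest of the 13 mRNAs in control cells and MT-ND6 (1003 CPM) the lowest.

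Of the 7 complex I mRNAs, the subunits of NADH dehydrogenase, MT-ND4 was the highest in CPM. It stood at 15798 ± 12846 CPM in control cells, 30425 ± 19398 in starved control cells, 8341 ± 1334 in OGDH-depleted cells and 15172 ± 11503 in starved OGDH-depleted cells. MT-ND4L, whose row overlaps that of MT-ND4, had 3434 ± 2796, 5788 ± 3553, 1781 ± 348 and 2306 ± 1543 CPM in the same order. Both therefore swung widely between libraries of a group, as MT-ND2 did at 3890 ± 3446, 4699 ± 3083, 2327 ± 401 and 2799 ± 2228 CPM. MT-ND1 stood at 1707 ± 1373, 2149 ± 1414, 1121 ± 190 and 609 ± 427 CPM, and MT-ND5 at 4868 ± 3383, 6864 ± 4580, 3384 ± 385 and 1799 ± 1325 CPM. For both, the lowest group mean was that of starved OGDH-depleted cells, without passing the test. MT-ND3 had 715 ± 473, 585 ± 322, 479 ± 18.2 and 300.5 ± 142 CPM.

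MT-ND6 is the sole mRNA on the minus strand and was the only mRNA called in any comparison. It had 319, 879 and 382 CPM in the control libraries and 1516, 852 and 183 CPM in the starved control libraries. In OGDH-depleted cells it had 374, 381 and 394 CPM and in starved OGDH-depleted cells 82.7, 135 and 366 CPM. The 3 OGDH-depleted libraries lay within 1.05-fold of each other, whereas the starved control libraries spanned 8.29-fold. It was lower in starved OGDH-depleted than in starved control cells by edgeR (log2 fold change -2.13, SE 0.71, adjusted p = 0.042), a comparison in which 28.7% of all tested rows were called and the libraries of MT-ND6 overlapped. This call was lost without control replicate 3 (adjusted p = 0.054), without starved control replicate 1 (0.18) or 2 (0.079), without starved OGDH-depleted replicate 1 (0.12) or 2 (0.14), without any 1 OGDH-depleted library (0.059 to 0.060), in the fit of the compared groups alone (0.11) and with the replicate numbers as a block (0.0997).

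The remaining mRNAs were MT-CYB of complex III and the ATP synthase genes MT-ATP6 and MT-ATP8. MT-CYB stood at 4063 ± 2635 CPM in control, 4238 ± 2425 in starved control, 2444 ± 361 in OGDH-depleted and 2085 ± 1233 in starved OGDH-depleted cells. MT-ATP6 had 5465 ± 4664, 4805 ± 3175, 3014 ± 551 and 3118 ± 2399 CPM, and MT-ATP8, whose row overlaps it, 264 ± 267, 284 ± 228, 115 ± 16.1 and 168 ± 182 CPM. MT-ATP8 had the widest spread of any mRNA within a group, 10.5-fold between the starved control libraries. The part of MT-CYB in the mRNA pool varied little within a group: 5.08% ± 0.122 of mRNA counts in control, 3.71% ± 0.130 in starved control, 4.54% ± 0.0933 in OGDH-depleted and 3.78% ± 0.112 in starved OGDH-depleted cells.

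Ratios between mRNAs of the same library did not all swing as the share did. The ratio of MT-CO3 to MT-CO2 counts was 1.42, 1.36 and 1.45 in control libraries and 0.578, 0.608 and 0.564 in starved control libraries. It was 1.29, 1.32 and 1.38 in OGDH-depleted libraries and 0.698, 0.688 and 0.631 in starved OGDH-depleted libraries. The fed and starved libraries were thus far apart in both kinds of cell, and neither control replicate 2 nor starved control replicate 3 stood out. This pair was chosen after its values were seen, so no test is given, and a ratio shows unequal change and not which of the 2 mRNAs changed. Nor was it the only such pair. Fed and starved libraries of both kinds of cell were also separate for MT-ND3 and for MT-CYB over MT-CO2. Over the same denominator MT-ND1, MT-ND4 and MT-ND5 overlapped between control and starved control libraries. As shares of mRNA counts, MT-CO3 went from 13.1% ± 1.60 to 6.55% ± 0.932 with starvation in control cells and from 13.6% ± 0.525 to 10.1% ± 1.25 in OGDH-depleted cells, while MT-ND4 went from 18.4% ± 2.58 to 25.3% ± 3.31 and from 15.5% ± 0.0927 to 25.6% ± 3.79.

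Some shares of the mRNA pool parted with starvation mainly in OGDH-depleted cells. MT-ND5 was 6.32% ± 0.345 of mRNA counts in OGDH-depleted and 3.06% ± 0.379 in starved OGDH-depleted cells, against 5.98% ± 0.141 in control and 5.58% ± 1.08 in starved control cells. MT-ND1 was 2.08% ± 0.0296 and 1.05% ± 0.103 in OGDH-depleted cells with and without glucose, against 1.99% ± 0.294 and 1.76% ± 0.302 in control cells. MT-ND6 was 0.726% ± 0.142 and 0.329% ± 0.0528, against 0.679% ± 0.0631 and 0.665% ± 0.248. For each of these 3 the starved OGDH-depleted libraries lay below all other libraries. The difference between the responses of the 2 kinds of cell was not tested on these shares.

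The rRNAs, the RNA core of the mitochondrial ribosome, rose with starvation in control cells, and MT-RNR1 fell in OGDH-depleted cells. MT-RNR1, the small-subunit rRNA, had 462, 600 and 508 CPM in control libraries and 1073, 1081 and 682 CPM in starved control libraries. In OGDH-depleted libraries it had 697, 753 and 617 CPM and in starved OGDH-depleted libraries 278, 386 and 368 CPM. No 2 groups compared overlapped, which held for 40.2% of all tested rows in the starvation of control cells, 39.7% in that of OGDH-depleted cells, 27% for OGDH loss with glucose and 38.7% without. MT-RNR1 rose with starvation in control cells (log2 fold change 0.85, SE 0.19, adjusted p = 0.0048 by edgeR) and fell in OGDH-depleted cells (-1.003, SE 0.19, adjusted p = 0.0094). Its responses differed by -1.86 (SE 0.27, adjusted p = 0.00074 for the interaction), and without glucose it was lower in OGDH-depleted than in control cells (-1.46, SE 0.19, adjusted p = 0.00020).

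MT-RNR2, the large-subunit rRNA, varied more. It had 1690, 5006 and 2321 CPM in control libraries, 11727, 12285 and 3920 in starved control, 2824, 3131 and 2397 in OGDH-depleted and 1446, 2347 and 4150 in starved OGDH-depleted libraries. The control and starved control libraries overlapped. MT-RNR2 rose in starved control cells by edgeR (log2 fold change 1.63, SE 0.51, adjusted p = 0.028) and was lower in OGDH-depleted than in control cells without glucose (-1.81, SE 0.51, adjusted p = 0.020). The first call was lost without control replicate 1 (adjusted p = 0.094) or 3 (0.097), without starved control replicate 1 (0.087) or 2 (0.091) and in the fit of the compared groups alone (0.068). The second was lost without starved control replicate 1 (0.0647) or 2 (0.0667) and without starved OGDH-depleted replicate 1 (0.0673) or 2 (0.0729). The ratio of MT-RNR2 to MT-RNR1 counts was 3.66, 8.34 and 4.57 in control, 10.9, 11.4 and 5.74 in starved control, 4.05, 4.16 and 3.89 in OGDH-depleted and 5.21, 6.08 and 11.3 in starved OGDH-depleted libraries, so that it was highest in the 4 libraries with the most negative GC slopes. The sources used here do not say if the libraries were made by poly-A selection or rRNA depletion, and either can set rRNA levels.

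Most of the tested tRNA rows fell with starvation in OGDH-depleted cells, and fewer than 5 of them in control cells. Of the 22 tRNA rows, 10 passed the filter on low counts, which keeps a row that is high enough in 1 group. Of those, 8 were called lower and 0 higher in starved OGDH-depleted cells, where 4.76% of all tested rows were called lower and 2.42% higher, and 4 lower and 0 higher in starved control cells, where 17.5% were called lower and 17% higher. The median log2 fold change over the 10 rows was -3.01 in OGDH-depleted and -0.91 in control cells, against 0.020 and -0.023 over all tested rows. The 4 rows called in control cells were also among the 8.

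**Figure D2:**
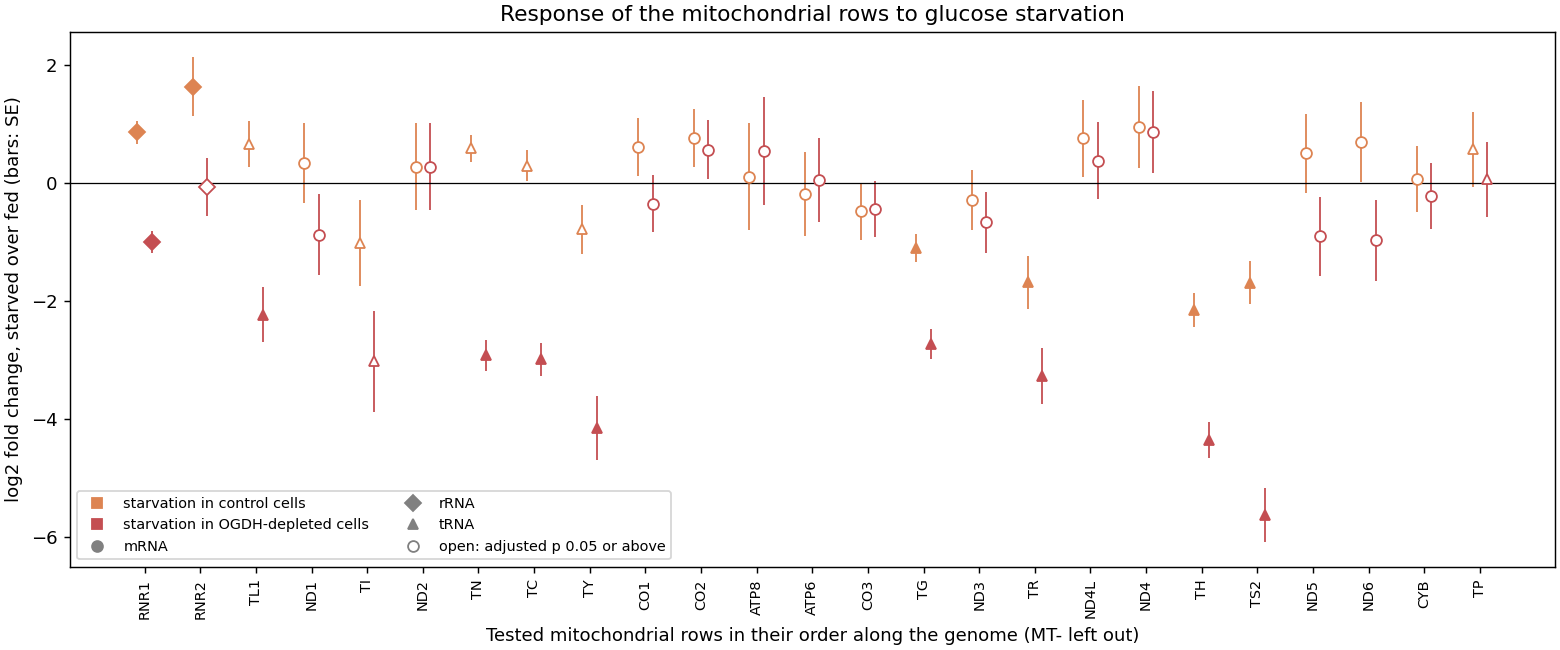
The log2 fold change of starved over fed cells with its SE is plotted for the 25 tested mitochondrial rows in genome order, in control cells (orange) and OGDH-depleted cells (red); circles are mRNAs, diamonds rRNAs and triangles tRNAs, and filled symbols have an adjusted p under 0.05. The mRNAs scatter around 0 with wide errors, while the 8 tRNAs called in OGDH-depleted cells lie between -2.24 and -5.64. MT-TI, not called there, lies at -3.03.

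MT-TH and MT-TS2, neighbours between MT-ND4 and MT-ND5, showed the largest falls. MT-TH had 159, 155 and 178 counts (6.30, 6.71 and 7.45 CPM) in control libraries and 19, 33 and 40 counts (1.07, 1.77 and 1.68 CPM) in starved control libraries. It had 415, 408 and 294 counts (16.6, 18.02 and 10.98 CPM) in OGDH-depleted libraries and 22, 23 and 8 counts (0.853, 0.958 and 0.365 CPM) after starvation. All 4 groups were separate from each other. MT-TH fell 4.48-fold with starvation in control cells (log2 fold change -2.16, SE 0.29, adjusted p = 0.00015 by edgeR) and 20.6-fold in OGDH-depleted cells (-4.36, SE 0.31, adjusted p = 1.41e-05), and the 2 responses differed (interaction -2.20, SE 0.42, adjusted p = 0.0042).

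MT-TS2, a serine tRNA whose sequence is the shortest of the set, had fewer fragments. It had 40, 41 and 33 counts in control, 7, 13 and 9 in starved control, 98, 97 and 81 in OGDH-depleted and 1, 4 and 0 in starved OGDH-depleted libraries. In the last group it thus rested on 5 fragments in 3 libraries, so its fold there is imprecise. MT-TS2 fell by 1.69 on the log2 scale in starved control cells (SE 0.37, adjusted p = 0.0041 by edgeR) and by 5.64 in starved OGDH-depleted cells (SE 0.46, adjusted p = 4.79e-05). The interaction was -3.95 (SE 0.67, adjusted p = 0.0019).

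MT-TG and MT-TR, which flank MT-ND3, were the other tRNAs lower in both kinds of cell. MT-TG had 42, 53 and 54 counts in control, 13, 22 and 23 in starved control, 87, 73 and 61 in OGDH-depleted and 12, 11 and 9 in starved OGDH-depleted libraries. MT-TR had 65, 174 and 61 counts in control, 26, 32 and 19 in starved control, 185, 175 and 147 in OGDH-depleted and 12, 18 and 20 in starved OGDH-depleted libraries. Fed and starved libraries did not overlap for either row, which held for 40.2% of all tested rows in control cells and 39.7% in OGDH-depleted cells. MT-TG fell by 1.10 in control (SE 0.24, adjusted p = 0.0040) and by 2.73 in OGDH-depleted cells (SE 0.25, adjusted p = 0.00012) on edgeR's log2 scale, and its interaction was called (-1.63, SE 0.35, adjusted p = 0.0087). MT-TR fell by 1.68 (SE 0.45, adjusted p = 0.013) and by 3.28 (SE 0.47, adjusted p = 0.0021), and its interaction did not pass the edgeR test. The MT-TR call in control cells was lost in the fit of the compared groups alone (adjusted p = 0.053).

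**Figure D3:**
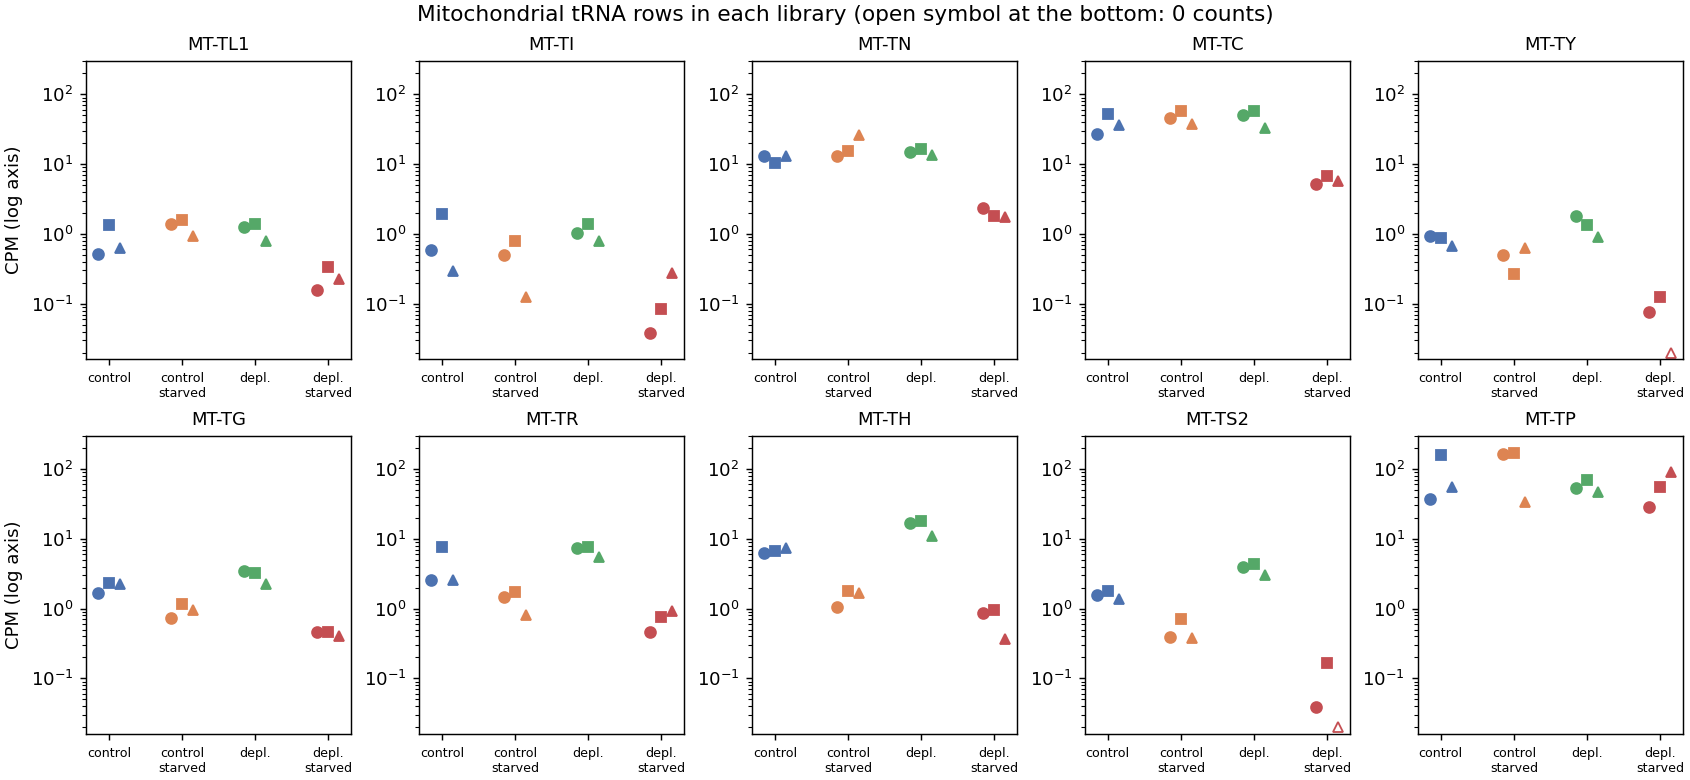
The level of each of the 10 tested mitochondrial tRNA rows is plotted in CPM on a log axis for the 12 libraries by group; circles, squares and triangles are replicates 1, 2 and 3, and an open symbol at the bottom is a library with 0 counts. Starved OGDH-depleted libraries lie lowest without overlap for all rows but MT-TI, MT-TR and MT-TP.

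A second set of tRNA rows was lower after starvation only in the test on OGDH-depleted cells, and for these rows the difference between the responses was itself called. MT-TN had 331, 239 and 318 counts (13.1, 10.3 and 13.3 CPM) in control, 232, 290 and 626 counts (13.02, 15.6 and 26.3 CPM) in starved control, 371, 368 and 363 counts (14.9, 16.3 and 13.6 CPM) in OGDH-depleted and 60, 43 and 38 counts (2.33, 1.79 and 1.73 CPM) in starved OGDH-depleted libraries. MT-TC, the next row along, had 27.2, 52.3 and 35.9 CPM in control, 45.8, 57.7 and 37.5 in starved control, 50.2, 57.2 and 33.3 in OGDH-depleted and 5.12, 6.75 and 5.79 in starved OGDH-depleted libraries. In both rows the starved OGDH-depleted libraries lay several-fold below all the others. MT-TN fell 7.59-fold in OGDH-depleted cells (log2 fold change -2.92, SE 0.26, adjusted p = 9.03e-05 by edgeR; interaction -3.51, SE 0.35, adjusted p = 5.23e-05). MT-TC fell 7.97-fold (-2.99, SE 0.28, adjusted p = 0.00013; interaction -3.28, SE 0.38, adjusted p = 0.00015).

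MT-TY and MT-TL1 belonged to the same set with far fewer fragments. MT-TY, the tyrosine tRNA beside MT-TC, had 24, 20 and 16 counts in control, 9, 5 and 15 in starved control, 45, 30 and 24 in OGDH-depleted and 2, 3 and 0 in starved OGDH-depleted libraries. MT-TL1, a leucine tRNA between MT-RNR2 and MT-ND1, had 13, 31 and 15 counts in control, 25, 30 and 22 in starved control, 31, 32 and 21 in OGDH-depleted and 4, 8 and 5 in starved OGDH-depleted libraries. Both were lowest in the starved OGDH-depleted libraries. By edgeR, MT-TY fell by 4.16 on the log2 scale (SE 0.54, adjusted p = 0.0011) and MT-TL1 by 2.24 (SE 0.46, adjusted p = 0.014) in OGDH-depleted cells. The MT-TL1 call was lost without OGDH-depleted replicate 1 (adjusted p = 0.051) or 2 (0.058) or starved OGDH-depleted replicate 3 (0.056). Their interactions were -3.37 (SE 0.74, adjusted p = 0.0089) for MT-TY and -2.89 (SE 0.60, adjusted p = 0.0068) for MT-TL1.

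By strand, the 4 tRNA rows called lower in starved control cells were all among the 6 tested rows of the plus strand, and 0 of the 4 of the minus strand were called. In starved OGDH-depleted cells 5 of 6 plus-strand rows and 3 of 4 minus-strand rows were called lower. The rows not called there were MT-TI and MT-TP. MT-TI, an isoleucine tRNA, had 26, 32 and 21 counts in OGDH-depleted and 1, 2 and 6 in starved OGDH-depleted libraries. Its log2 fold change was -3.03 (SE 0.86, adjusted p = 0.058 by edgeR), and DESeq2 called it lower (-3.06, adjusted p = 0.0067). That of MT-TP was 0.055 by edgeR. Since strand was not used in counting, a row's strand is that of the annotation and not of the fragments.

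MT-TP, whose row could also hold longer fragments, did not follow the other tRNA rows. It had 36.6, 156 and 55.5 CPM in control, 165, 168 and 33.9 in starved control, 52.8, 68.6 and 46.1 in OGDH-depleted and 28.6, 55.6 and 89.97 in starved OGDH-depleted libraries. These swings are those of the mRNA share: set against the mRNA counts of the same library, MT-TP gave 9.78 ± 1.21 counts per 10000 in control, 10.2 ± 1.54 in starved control, 10.3 ± 0.677 in OGDH-depleted and 10.7 ± 1.21 in starved OGDH-depleted cells. With all libraries and no covariate, MT-TP passed no test in any of the 5 comparisons. It alone held 33.8% to 38.6% of the tRNA counts in OGDH-depleted libraries and 74.7% to 89.8% in starved OGDH-depleted libraries.

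The other 21 tRNA rows against the mRNAs of the same library showed the loss in starved OGDH-depleted cells. They gave 12.9, 6.06 and 11.8 counts per 10000 mRNA counts in control and 4.07, 5.71 and 17.7 in starved control libraries. In OGDH-depleted libraries they gave 18.9, 18.1 and 16.4 and in starved OGDH-depleted libraries 3.58, 2.48 and 1.08. OGDH-depleted libraries overlapped with no starved OGDH-depleted library, while control and starved control libraries overlapped. Counted without that denominator, the 21 rows held 1403, 2004 and 1573 fragments in control, 1167, 1531 and 1659 in starved control, 2582, 2551 and 1962 in OGDH-depleted and 250, 277 and 223 in starved OGDH-depleted libraries. The 3 starved OGDH-depleted libraries were alike in this count although their mRNA shares spanned 2.87% to 9.26%. Of the fragments in the 21 rows, MT-TC alone held 687, 1209 and 857 in control and 816, 1074 and 892 in starved control libraries. It held 1255, 1295 and 893 in OGDH-depleted and 132, 162 and 127 in starved OGDH-depleted libraries. The 12 tRNA rows below the filter held 27 to 37 fragments per library in control, 10 to 17 in starved control, 41 to 69 in OGDH-depleted and 3 to 10 in starved OGDH-depleted libraries.

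**Figure D4:**
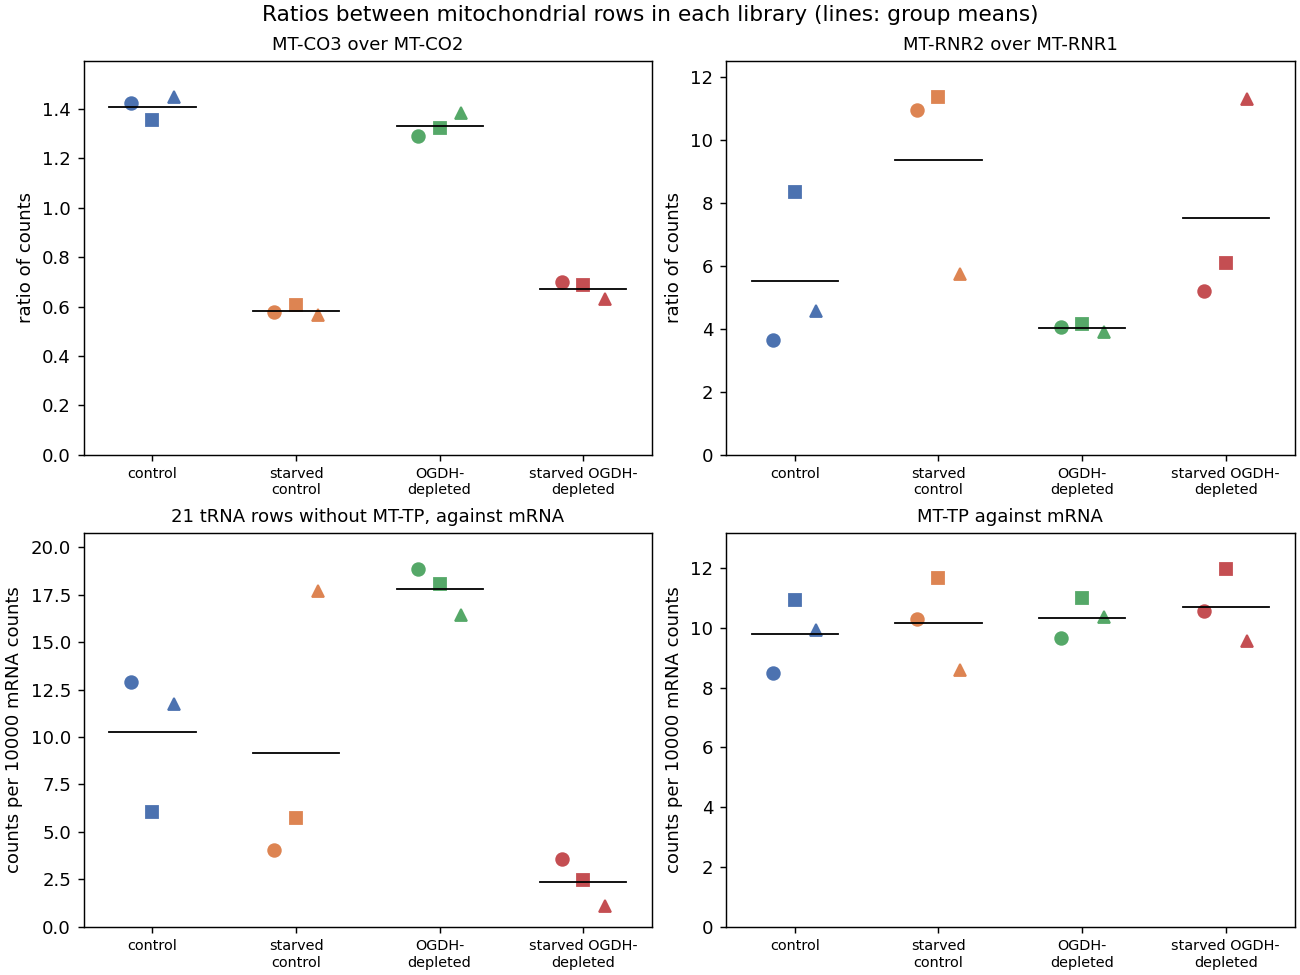
Ratios of counts within each of the 12 libraries are plotted by group with lines at the group means: MT-CO3 over MT-CO2, MT-RNR2 over MT-RNR1, and the 21 other tRNA rows and MT-TP, each per 10000 mRNA counts; circles, squares and triangles are replicates 1, 2 and 3. MT-CO3 over MT-CO2 is 1.29 to 1.45 with glucose and 0.564 to 0.698 without, and the 21 tRNA rows fall to 1.08 to 3.58 in starved OGDH-depleted libraries while MT-TP stays between 8.50 and 11.97 in all libraries.

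OGDH loss with glucose moved 2 tRNA rows. MT-TH was higher in OGDH-depleted than in control cells (log2 fold change 1.15, SE 0.25, adjusted p = 0.031 by edgeR) and so was MT-TS2 (1.24, SE 0.29, adjusted p = 0.045), both without overlap between the libraries listed above. In this comparison 1.59% of all tested rows were called higher, and 27% had libraries that did not overlap. Both calls were lost without any 1 of the 3 control libraries and without OGDH-depleted replicate 1 or 2 (adjusted p = 0.0703 to 0.18). The MT-TS2 call was also lost without OGDH-depleted replicate 3 (adjusted p = 0.081), starved control replicate 1 (0.068) or starved OGDH-depleted replicate 1 (0.055), and the MT-TH call with the replicate numbers as a block (0.058).

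Without glucose, OGDH loss was associated with lower levels of 7 tRNA rows and higher levels of 0, where 15% of all tested rows were called lower and 13.7% higher. MT-TN (log2 fold change -3.23, SE 0.26, adjusted p = 6.03e-06 by edgeR) and MT-TC (-3.00, SE 0.28, adjusted p = 1.83e-05) differed most by p. MT-TY (-2.69), MT-TS2 (-2.71) and MT-TL1 (-2.43) were also lower, with adjusted p of 0.0085, 0.0060 and 0.0023. MT-TG was lower by 1.10 (adjusted p = 0.013) and MT-TH by 1.04 (adjusted p = 0.039) on the log2 scale; the MT-TG call was lost without starved control replicate 2 (adjusted p = 0.054) and the MT-TH call without the 3 outlying libraries (0.19) or any 1 of 6 single libraries (0.052 to 0.12). Since this comparison, the starvation comparisons and the interaction share libraries, their calls are not independent of each other.

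The interaction called 7 tRNA rows, MT-TL1, MT-TN, MT-TC, MT-TY, MT-TG, MT-TH and MT-TS2, and MT-RNR1, all with a more negative response in OGDH-depleted cells. For the interaction, 8.95% of all tested rows were called in that direction and 8.3% in the other. The falls in starved OGDH-depleted cells did not rest on the outlying libraries: without the 3 of them, 11 tRNA rows were tested and 10 were called lower, all but MT-TP (-0.43, adjusted p = 0.27 by edgeR). That fit called 17.6% of all tested rows. Among the 10 was MT-TL2, which passed the filter there through the OGDH-depleted libraries, where it was highest (17, 7 and 14 counts). Its call is therefore no support. With the GC slope covariate all 10 tested rows were called lower, MT-TP too (-1.34, adjusted p = 8.28e-05), and 26.9% of all tested rows were called.

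Other short rows of the table were looked at because short rows depend on short fragments. Of 2813 rows of at most 100 bases outside the mitochondrial genome, mostly under the filter, 41 were tested. All 2813 rows together, tested or not, summed to 160 ± 24.0 CPM in control and 176 ± 32.8 in starved control cells. In OGDH-depleted cells they summed to 155 ± 11.8 and in starved OGDH-depleted cells to 144 ± 25.4 CPM, and the groups overlapped. In starved OGDH-depleted cells, where 2.42% of all tested rows were higher and 4.76% lower, 4 of the 41 were higher and 9 lower (median log2 fold change -0.35), with SNORD83A, a small nucleolar RNA, at -2.77 (SE 0.33, adjusted p = 0.00061 by edgeR) and MIR1244-2 at 1.68 (SE 0.29, adjusted p = 0.0078, and 0.065 without OGDH-depleted replicate 3). In the interaction 7 of the 41 were lower and 0 higher (median -1.05), against 8.95% and 8.3% of all tested rows. The part of fragment length in the tRNA result was not tested.

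The nuclear genes that make, cut and modify mitochondrial RNA are read against all tested rows, of which 17.5% were lower and 17% higher in starved control cells and 4.76% lower and 2.42% higher in starved OGDH-depleted cells. Of 11 mitochondrial transcription genes, 5 were lower and 0 higher with starvation in control cells (median log2 fold change -0.25) and 0 were called in OGDH-depleted cells, where 0 also had an unadjusted p under 0.05 and DESeq2 called 0. TFB1M, an rRNA methyltransferase (log2 fold change -0.57, SE 0.10, adjusted p = 0.0013 by edgeR), and MTERF2 (-0.75, SE 0.17, adjusted p = 0.0050) were lower in starved control cells. TFB1M had an interaction of 0.78 (adjusted p = 0.0034) and MTERF2 one of 0.81 (adjusted p = 0.035); that of MTERF2 was lost in 8 of the 12 refits without 1 library, all but those without control replicate 1 or 3, starved control replicate 2 or starved OGDH-depleted replicate 2 (adjusted p up to 0.081). In the interaction 2 of the 11 genes were called, both higher, where 8.3% of all tested rows were called higher and 8.95% lower.

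Among 19 genes of mitochondrial RNA processing and decay, again against 17% higher and 17.5% lower of all tested rows, 2 were higher and 5 lower in starved control cells and 0 were called in starved OGDH-depleted cells, where 2 had an unadjusted p under 0.05 and DESeq2 called 0. FASTKD1 fell in starved control cells (-0.78, SE 0.14, adjusted p = 0.0011 by edgeR), and SUPV3L1, a helicase of the mitochondrial RNA degradation complex, rose (0.68, SE 0.12, adjusted p = 0.0014). PDE12, which removes poly-A tails from mitochondrial RNA, was the only gene of the list called for OGDH loss with glucose (0.39, SE 0.074, adjusted p = 0.017), and this call was lost without control replicate 1 or 3 or any 1 OGDH-depleted library (0.057 to 0.095). Of 18 tRNA modification genes, 2 were higher and 5 lower in starved control cells and 0 were called in starved OGDH-depleted cells, where 2 had an unadjusted p under 0.05 and DESeq2 called 1 lower. The 2 with the smallest p in starved control cells were MTFMT, which formylates the initiator tRNA (-0.73, SE 0.12, adjusted p = 0.00066), and GTPBP3, which modifies the wobble base of several tRNAs (-1.07, SE 0.22, adjusted p = 0.0033).

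The mitochondrial ribosome and the DNA itself were looked at against the same shares of all tested rows, 17% higher and 17.5% lower in starved control cells. Of 77 tested mitochondrial ribosomal protein genes, 3 were higher and 15 lower in starved control cells, with MRPL35 (-0.64, SE 0.088, adjusted p = 0.00021 by edgeR) and MRPL50 (-0.63, SE 0.092, adjusted p = 0.00030) having the smallest p. In starved OGDH-depleted cells MRPS25 alone was called (-0.38, SE 0.095, adjusted p = 0.033), and this call was lost in 7 of the 12 refits without 1 library: control replicate 3, starved control replicate 2, any 1 OGDH-depleted library, or starved OGDH-depleted replicate 2 or 3 (0.051 to 0.17). Of 13 genes of mitochondrial DNA maintenance, 1 was higher and 4 lower in starved control cells, led by TK2, the mitochondrial thymidine kinase (-0.85, SE 0.16, adjusted p = 0.0017), and DNA2 (-0.62, SE 0.17, adjusted p = 0.016). TWNK, the mitochondrial DNA helicase, was the 1 called in starved OGDH-depleted cells (-0.43, SE 0.11, adjusted p = 0.044), a call lost in 10 of those 12 refits, all but those without control replicate 2 or starved control replicate 3 (0.052 to 0.20). Nuclear copies of mitochondrial genes, from which misplaced mitochondrial fragments can be counted, gave 17 tested rows of 402, with 0 called by edgeR for starvation in either kind of cell (in control cells DESeq2 called 1 and 2 had an unadjusted p under 0.05, against 0 and 0 in OGDH-depleted cells) and MTCO1P12 lower without glucose in OGDH-depleted cells (-1.39, SE 0.47, adjusted p = 0.045). The last call was lost in 8 of the 12 refits, all but those without control replicate 1 or 2, starved control replicate 3 or starved OGDH-depleted replicate 3 (0.057 to 0.15). In that comparison 6 of the 17 rows had an unadjusted p under 0.05 by edgeR (median log2 fold change -0.69). DESeq2 called 4 of the 17 lower and 0 higher. Of all tested rows, edgeR called 15% lower and 13.7% higher there, and DESeq2 called 31% in either direction.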

How the data were processed

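The deposited counts are raw fragment counts for each gene name, which the authors made with featureCounts 2.0.1 in paired mode over exons, without strand and without fragments that map to several places or touch several rows, per the file headers. The submitters' processing notes name Subread and hg38; aligner and library type: not given in the sources used here. Samples were grouped by title. In R 4.3.3, edgeR 4.0.16 (TMM, filterByExpr with minimum count 10 and minimum total count 15, quasi-likelihood test, Benjamini-Hochberg over 18526 rows) was fitted to all 12 libraries with 1 mean per group, and 42683 rows were not tested. DESeq2 1.42.0 served as an alternative. Fits were tested on simulated data. GC slopes used the median GC of GENCODE 29 transcripts, matched for 81.8% of tested nuclear rows. Replicates of a group differed beyond sampling noise (chi-square per degree of freedom 3.55 to 140). The members and lists were chosen with earlier results of these data known. All members that passed a test are named, with every mRNA and rRNA, and of each nuclear list the 2 with the smallest p in a contrast. Alternatives covered scaling, filter, test, samples in the fit, left-out libraries and a replicate block.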

Additional observations from a re-analysis of the deposited data

Results flagged for a closer look

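For 8 mitochondrial rows the response to glucose starvation differed between OGDH-depleted and control cells by the interaction term of the edgeR fit, and each was more negative in OGDH-depleted cells. The differences in log2 response were -3.95 for MT-TS2, -3.51 for MT-TN, -3.37 for MT-TY, -3.28 for MT-TC, -2.89 for MT-TL1, -2.20 for MT-TH, -1.86 for MT-RNR1 and -1.63 for MT-TG. MT-TS2 and MT-TY rest on 5 fragments each over the 3 starved OGDH-depleted libraries. The interaction of MT-TG was lost when only the 7 libraries with a GC slope above 0 were fitted (adjusted p = 0.063), a fit that leaves each starved group with 1 library, assumed to vary like the other groups.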

How the results depend on the processing

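Of the 35 calls of a mitochondrial row, all 35 held under DESeq2's scaling, under the DESeq2 test, without a filter on low counts, with scaling from nuclear rows and with the GC slope covariate, and 34 held without the 3 outlying libraries. With the replicate block 33 held and 2 were lost, with only the libraries that have a GC slope above 0 31 held and 4 were lost, and in fits of the compared groups alone 21 held and 4 were lost; with the stricter filter the 29 that could be tested held. The 4 lost with a GC slope above 0 were MT-TG for starvation in control cells (adjusted p = 0.058), for OGDH loss without glucose (0.16) and in the interaction (0.063), and MT-TH for OGDH loss without glucose (0.20); MT-TH was also lost there in the compared groups alone (0.094). No call of a mitochondrial row changed direction under any alternative. Leaving out 1 library at a time gave 420 refits of these calls, of which 39 lost the call. The number of tRNA rows called ranged from 4 to 5 for starvation in control cells, 7 to 10 in OGDH-depleted cells, 0 to 2 for OGDH loss with glucose, 5 to 7 for OGDH loss without glucose and 7 to 8 for the interaction when 1 library was left out. The mRNA count for OGDH loss without glucose ranged from 0 to 6 in those fits (6 without starved control replicate 3, 4 without control replicate 2 or starved OGDH-depleted replicate 3) and was 0 for the other 4 comparisons. For starvation in control cells, the fits with 5 tRNA rows called had 4 lower and 1 higher. They were the fits without control replicate 2 or starved control replicate 1.

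Without the 3 outlying libraries, 12 mRNAs (all higher) and 7 tRNAs (3 higher, 4 lower) were called for starvation in control cells, 9 mRNAs for starvation in OGDH-depleted cells, 13 with OGDH loss in starved cells and 13 in the interaction, all of these lower. Of all tested rows that fit called 60.5%, 17.6%, 52.6% and 43% in these comparisons, in the same order. The fit with the GC slope as covariate was added after seeing the data: 7 mRNAs (2 higher, 5 lower) were called for starvation in control cells, 13 in OGDH-depleted cells, 13 with OGDH loss in starved cells and 13 in the interaction, and 6 tRNAs were higher with OGDH loss in fed cells. Of all tested rows it called 59.7%, 26.9%, 57.7% and 47.3% in those comparisons and 23.5% for OGDH loss in fed cells. With only the 7 libraries that have a GC slope above 0, also an added choice and with 1 library in each starved group, 9, 11, 6 and 5 mRNAs were called lower in those 4 comparisons. A starved group of 1 library has no spread of its own, so those counts are no evidence of a change. The median log2 fold changes over the mRNAs in that fit were -0.72, -1.23, -0.53 and -0.51, in the same order. For OGDH loss without glucose, 4 mRNAs were lower with the DESeq2 test and 6 without a filter on low counts. These settings called 31% and 12.4% of all tested rows there. The fit of the compared groups alone called 0 mRNAs, 4 tRNAs and 22.5% of all tested rows, where 7 tRNA rows passed its filter. The cause of these differences was not tested.

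With the replicate numbers as a block, 1 tRNA was called for OGDH loss with glucose and 0 mRNAs for OGDH loss without glucose; the counts for the other comparisons stayed within 1 of those without it. The numbers did not pair the libraries: same-numbered libraries had correlations of -0.69 to 0.59 in their deviations from the group means, and the libraries that correlated best with their own number were 3, 2, 4 and 0 of 6 in starvation of control cells, starvation of OGDH-depleted cells, OGDH loss with glucose and OGDH loss without. Taking the share of mitochondrial rows as a percent of nuclear counts gave means of 9.71%, 12.1%, 6.53% and 6.44% in control, starved control, OGDH-depleted and starved OGDH-depleted cells. The log2 difference of the tRNA to mRNA ratio for starvation in OGDH-depleted cells was -1.12 over all tRNA rows, -2.47 by the mean of log2 CPM over rows and -3.06 without MT-TP. Depth limits MT-TS2, MT-TY, MT-TL1, MT-TI and the 12 untested tRNA rows, which have few fragments per library.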
